A study of Mus musculus with 4 samples.

Results

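The genes described here are all genes that the RefSeq table for mm10 lists with the biotype snRNA on chromosomes 1 to 19, X and Y. There are 1004 of them among 49939 genes of the table on these chromosomes. Of these, 7 carry positions under 3 Mb, where no peak off chromosome Y lay, and were taken as positions on other scaffolds, so 997 were scored. A gene is called marked in a library when the summit of a peak, the base where the signal was highest, lay within 1 kb of either end of the gene. The peaks came from CUT&Tag, in which a transposase directed by an antibody cuts out and tags the DNA near its target for sequencing. The cells were haematopoietic stem cells (lineage-negative, Sca-1-positive, Kit-positive, CD48-negative, CD150-positive) sorted from marrow; the mice were wild-type, of strain C57BL/6J, all untreated as far as the labels say, with no age given. There were 2 libraries with an antibody to ATF2 phosphorylated at T69/71, which the antibody field of the labels writes T67/71, and 2 with an antibody to ATF2 phosphorylated at S490/498. ATF2 is a transcription factor of the basic leucine zipper family that binds the cAMP response element and related sites.

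Small nuclear RNAs work as the RNA core of ribonucleoprotein particles. U1, U2, U4, U5 and U6 build the major spliceosome, U11 and U12 serve the minor one, U7 directs the processing of histone mRNA ends, and 7SK holds the elongation factor P-TEFb inactive. Most are transcribed by RNA polymerase II from short promoters, U6 and 7SK by RNA polymerase III, and mammalian genomes hold many copies and decayed copies of each. The table names few of these copies: 17 scored genes have a symbol that gives their RNA and 980 have a placeholder symbol. Classes were read from names only, so a placeholder gene may belong to any class. By class there were 4 U1 genes (Rnu1a1, Rnu1b1, Rnu1b2, Rnu1b6), 1 U2 gene (Rnu2-10), 1 U5 gene (Rnu5g), 1 U6 gene (Rnu6), 0 U4 genes and 10 others (Rnu7, Rnu11, Rnu12, Rn7sk, Rnu3a, Rnu3b1, Rnu3b2, Rnu3b3, Rnu3b4, Snord73b). U3, the product of the Rnu3 genes, and the product of Snord73b are RNAs of the nucleolus, although the table gives these genes the biotype snRNA.

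RefSeq promoter windows (250 bases before a gene's start, GRCm38.p6) were matched to 0 of the 1004 members, but 4 windows of neighbouring genes hold or adjoin a member and show the kind of DNA involved. Each is written 5′ to 3′ on the strand of the named neighbour.
The Grcc10 window, chr6:124741070-124741319, minus strand, is shown because it holds the whole Rnu7 gene, which the capitals mark:
Rnu7 in the Grcc10 window: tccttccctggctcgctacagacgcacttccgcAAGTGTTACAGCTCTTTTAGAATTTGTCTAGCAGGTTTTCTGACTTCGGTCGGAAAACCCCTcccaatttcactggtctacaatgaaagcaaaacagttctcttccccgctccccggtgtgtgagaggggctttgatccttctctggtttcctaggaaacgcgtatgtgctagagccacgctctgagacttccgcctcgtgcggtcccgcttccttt
The C920006O11Rik window, chr9:78175664-78175913, plus strand, is shown because the peaks beside Rn7sk lie over it, and the capitals mark a TATA box (TATAAA) and a GC box (GGGCGG), both read on the opposite strand:
beside Rn7sk: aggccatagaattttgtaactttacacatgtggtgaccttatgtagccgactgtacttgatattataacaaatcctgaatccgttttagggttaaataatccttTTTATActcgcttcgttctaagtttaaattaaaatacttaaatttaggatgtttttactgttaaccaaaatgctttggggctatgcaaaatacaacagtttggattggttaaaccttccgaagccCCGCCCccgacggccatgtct
The D230017M19Rik window, chr1:72243743-72243992, plus strand, is shown because the peaks beside Gm24497 lie over it, and the capitals mark a GC box and an octamer (ATGCAAAT):
beside Gm24497: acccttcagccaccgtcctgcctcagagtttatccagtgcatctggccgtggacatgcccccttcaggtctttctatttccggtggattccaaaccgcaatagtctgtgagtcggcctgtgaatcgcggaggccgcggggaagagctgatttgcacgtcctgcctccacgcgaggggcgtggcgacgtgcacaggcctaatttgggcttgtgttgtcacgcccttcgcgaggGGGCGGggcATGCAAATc
The Gm26232 window, chr3:96450389-96450638, plus strand, is shown because it holds a 166-bp member that no library marked, LOC115489800, which the capitals mark:
LOC115489800 in the Gm26232 window: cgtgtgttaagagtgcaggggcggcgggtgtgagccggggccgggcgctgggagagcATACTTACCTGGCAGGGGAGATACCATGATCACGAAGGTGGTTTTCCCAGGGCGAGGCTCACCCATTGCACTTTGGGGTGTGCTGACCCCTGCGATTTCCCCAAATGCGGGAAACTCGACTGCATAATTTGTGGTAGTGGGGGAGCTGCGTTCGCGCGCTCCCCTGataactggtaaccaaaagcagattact

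The Rnu7 stretch holds the Sm site of U7 on the strand printed, and the LOC115489800 stretch holds ACTTACCTG, the start of U1 that pairs with splice sites, as printed. The TATA box beside Rn7sk lay 135 bp from the gene, and the octamer beside Gm24497 lay 229 bp from it. Both strands of the 4 windows were searched for TGACGTCA (the cAMP response element), TGANTCA (the AP-1 site), the octamer, the TATA box and the GC box as spelled above, and the core of the ZNF143 element. The only matches are those in capitals, apart from a GC box in the Gm26232 window outside the gene. Of 32851 RefSeq windows of this length, 1.55% hold TGACGTCA, 6.75% TGANTCA, 1.60% the octamer, 12.4% the TATA box, 32.7% the GC box and 0.253% the ZNF143 core. AP-1 and cAMP response element letters were in none of the 4 windows, which speaks only of these windows.

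The peak lists held 12464 and 14716 peaks on the named chromosomes for T69/71 replicates 1 and 2, and 7132 and 435 for S490/498 replicates 1 and 2. S490/498 replicate 2 stood apart in the lowest background among its peaks, recovered from the deposited fold and p columns. It was 1.52, against 0.0874 to 0.117 in the other libraries. This lowest value is only an upper bound for the genome-wide background. Reads behind the lists were not analysed here, so depth per library is unknown. The labels do not say whether the replicates of an antibody came from separate mice, so the spread between them may be technical. No library of an unspecific antibody is among the samples used here, and no background was measured in control samples.

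Few snRNA genes were marked. T69/71 replicate 1 marked 42 of 997 (4.21%, exact binomial 95% interval 3.05 to 5.65), against 27.6% of protein-coding genes. T69/71 replicate 2 marked 48 (4.81%, 3.57 to 6.33), against 28%. The second T69/71 list was longer and marked more members, and the intervals of the pair overlapped. S490/498 replicate 1 marked 23 (2.31%, 1.47 to 3.44), against 18%, and S490/498 replicate 2 marked 5 (0.502%, 0.163 to 1.17), against 0.225%. In the first 3 libraries, in this order, the share of snRNA genes was thus far under that of coding genes, whose ends lie far apart, and in the sparse S490/498 replicate 2 it was above it. These intervals, like all below, cover counting error only.

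A snRNA gene is so short that both ends lie in nearly the same window, so a single coding gene end is the nearer match. Of single coding ends, 14.3%, 14.5%, 9.26% and 0.117% had a summit within 1 kb in the 4 libraries, in the order above. Among other short RNAs, miRNA genes were marked at 5.62%, 5.78%, 4.07% and 0.0814%, and snoRNA genes, many of which lie inside introns, at 2.63%, 2.18%, 1.95% and 0.0752%. The genes of long noncoding RNAs (lncRNAs) were marked at 8.86%, 9.31%, 5.31% and 0.15%. The snRNA share fell between those of miRNA and snoRNA genes in both T69/71 libraries and in S490/498 replicate 1. The part of the chromosomes within 1 kb of a summit was 0.924%, 1.08%, 0.531% and 0.0325%, smaller than the snRNA share in every library.

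The T69/71 libraries marked 36 members in common (3.61%, 2.54 to 4.96), against 21.2% of protein-coding genes, 10.8% of single coding ends, 6.09% of lncRNA genes, 4.07% of miRNA genes and 1.73% of snoRNA genes. These 36 were 85.7% of the members of replicate 1 and 75.0% of those of replicate 2. Across all libraries 55 members were marked at least once: 18 in 1 library, 15 in 2, 18 in 3 and 4 in all 4. The 4 marked everywhere were Rnu1a1, Rnu3b4, Gm22513 and Gm22634. Of the 23 members of S490/498 replicate 1, 22 were also marked by a T69/71 library, and the exception was Gm25064 (fold 6.72). All 5 of S490/498 replicate 2 were also marked by both T69/71 libraries.

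Marking differed between genes with and without a class symbol. Single classes were too small to compare. For both T69/71 libraries the interval was 0.631% to 80.6% for U1 and 2.5% to 100% for U2. Of the 17 genes with a class symbol, 9, 11, 8 and 2 were marked in T69/71 replicates 1 and 2 and S490/498 replicates 1 and 2, and 8 were marked in both T69/71 libraries (47.1%, 23.0 to 72.2). Of the 980 genes without a class symbol, 33, 37, 15 and 3 were marked, and 28 in both T69/71 libraries (2.86%, 1.91 to 4.10). The intervals of the named and unnamed genes did not overlap for both T69/71 libraries, but genes are not replicates and no test across genes was made. Of the named genes marked in both, Rnu1a1, Rnu3b1, Rnu3b3 and Rnu3b4 lie in the same 48.7 kb of chromosome 11.

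Rnu1a1 (chr11:87422867-87423030), which encodes U1, the RNA that pairs with the start of introns, had a peak in every library. The authors' fold enrichment was 6.39 and 8.08 with T69/71 and 5.36 and 5.68 with S490/498. This fold is the signal at the summit over its local background, with the same constant added to both. All folds and −log10 q values given here are the authors' own for that peak, and each list has its own scale. The summits lay 122, 257, 196 and 172 bp above the upper end of the gene. The number of fragments recovered from the fold and p columns was 23, 51, 13 and 26. Of the other 3 U1 genes, Rnu1b1, Rnu1b2 and Rnu1b6, none was marked. The nearest summit to Rnu1b6 was 28.1, 29.1, 28.0 and 415 kb away, and that to Rnu1b1 was 81.6, 31.7, 66.0 and 315 kb away.

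Rnu2-10 (chr11:101658238-101658424), which encodes U2, the RNA that pairs with the branch point, had folds of 7.84 and 10.3 with T69/71 and 7.16 with S490/498 replicate 1, with no peak in S490/498 replicate 2. Its summits lay 54, 52 and 201 bp above the gene, and the first pair differed by 2 bp. Rnu5g (chr9:65201726-65201841), the U5 gene, was marked only in T69/71 replicate 2 (fold 6.79), with its summit 327 bp below the gene. In T69/71 replicate 1 the nearest summit to Rnu5g was 4.85 kb away, beside its neighbour Gm25313. Rnu6 (chr17:13432033-13432139), the U6 gene, was marked in none, and its nearest summits were 121, 9.03, 121 and 121 kb away.

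Among the other named genes, Rnu12 (chr15:83149645-83149794) had folds of 7.29, 8.85 and 6.13 in the first 3 libraries, and its peaks covered all 150 bp of the gene in each. Its neighbour Poldip3, a coding gene, has an end 267 bp away, so these peaks lie at a coding end too. Rnu11 (chr4:132270079-132270186) was marked only in T69/71 replicate 2 (fold 4.70), where its peak was weak (−log10 q 3.18). Rnu7, the U7 gene, reached a fold of 4.74 in T69/71 replicate 1 and 6.47 in replicate 2, with summits 214 bp above it in replicate 1 and 170 bp below it in replicate 2. Both of those peaks overlap the printed Grcc10 window, and the Grcc10 end lies 156 bp from Rnu7. Rn7sk (chr9:78175302-78175633) had a fold of 6.37 in T69/71 replicate 1 and of 6.55 in S490/498 replicate 1, with both summits on the side of the printed C920006O11Rik window, 249 and 324 bp from the gene. The first of them falls at base 219 of that window, and both lay within 1 kb of a lncRNA end too.

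The genes of the nucleolar U3 RNA, which takes part in the processing of ribosomal RNA, were marked in both T69/71 libraries in 4 of 5 cases. All Rnu3b genes lie in the same 48.7 kb of chromosome 11, and the class is too small to compare with others. Rnu3a (chr10:40258468-40258679) had folds of 9.87, 12.4 and 7.82 in the first 3 libraries and no peak in S490/498 replicate 2, and the coding gene Gtf3c6 ends 756 bp from it. Rnu3b1 had folds of 10.0, 9.41 and 5.13 in the same libraries, and Rnu3b3 of 8.0, 9.57 and 5.21. The Rnu3b1 summits also lay within 1 kb of a lncRNA end. Rnu3b4 had folds of 6.85, 8.24, 4.56 and 5.55 in all 4 libraries, whereas Rnu3b2 had a peak only in T69/71 replicate 2 (fold 8.86). All 5 genes were thus marked in T69/71 replicate 2. For Rnu3a, Rnu3b1, Rnu3b3 and Rnu3b4 the lowest fold was that of S490/498 replicate 1, though each list has its own scale. Snord73b was not marked, although the nearest summits lay 2.05 and 1.98 kb from it in T69/71 replicate 2 and S490/498 replicate 1.

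**Figure D1:**
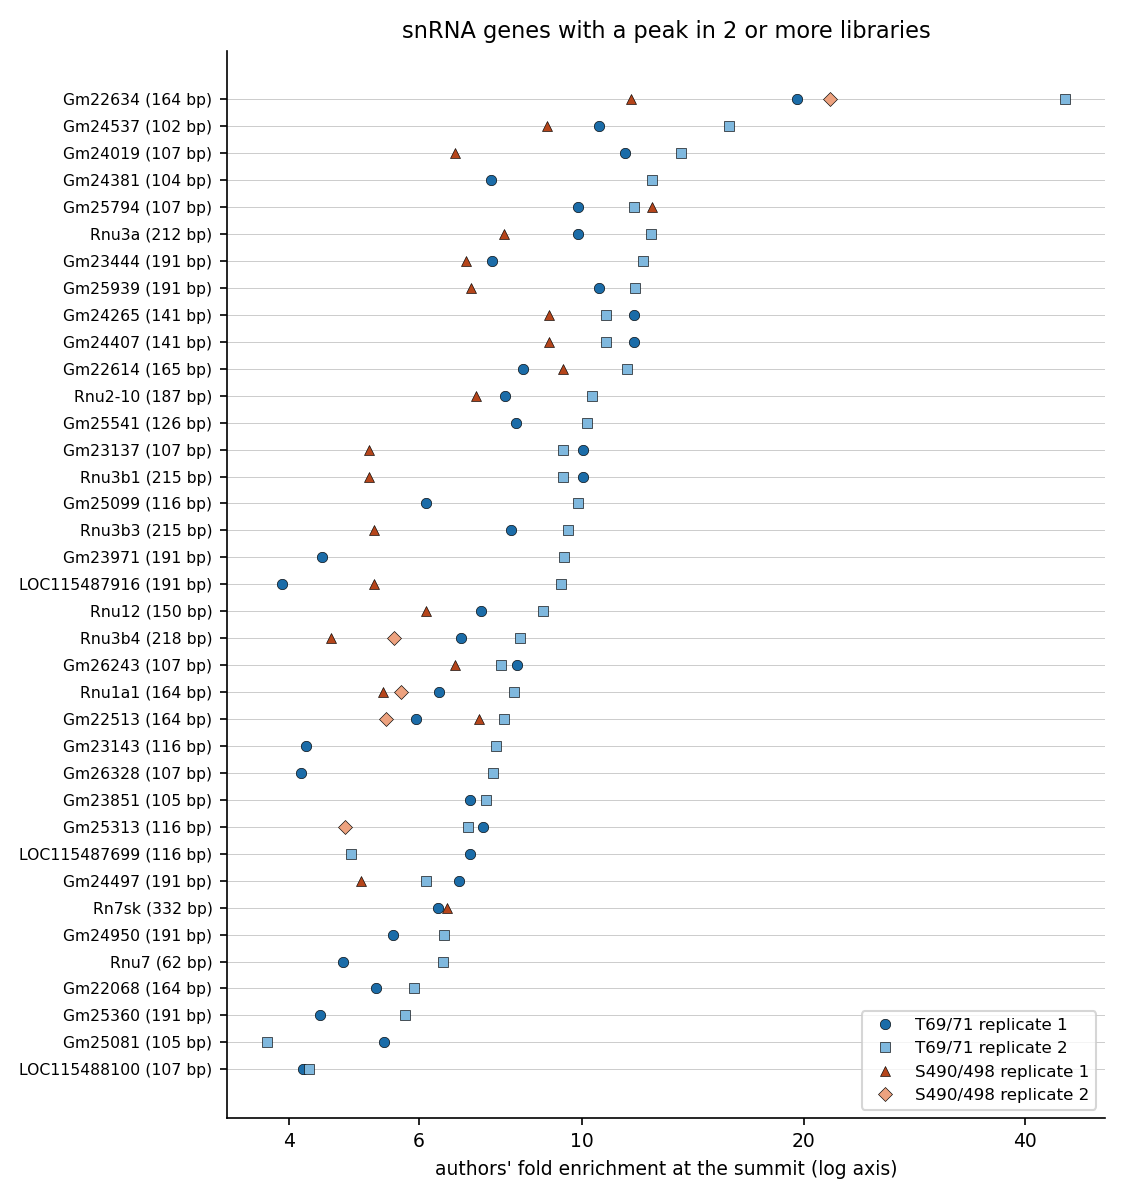
The authors' fold enrichment (log axis) at each snRNA gene with a peak in 2 or more libraries, a marker per library, with the gene's length beside its name. Gm22634 reaches 45.3 in T69/71 replicate 2, and Gm24537 comes next in that library at 15.8.

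Because the gene table gives neither the strand nor the class of the 980 genes with placeholder symbols, gene length was the other feature by which they could be grouped, and the groups were drawn after the values had been seen. Genes of 107 bp, the length of Rnu6, were the most frequent, and 6 of 383 (1.57%) were marked in both T69/71 libraries. Genes of 102 to 106 bp were marked at 4 of 262 (1.53%). Genes of 187 to 191 bp, the length range that holds Rnu2-10, were marked at 8 of 20 (95% interval 19.1% to 63.9%), and those of 116 bp, the length of Rnu5g, at 4 of 9. Genes of 164 to 166 bp, the length of the Rnu1 genes, were marked at 5 of 54 (9.26%, 3.08 to 20.3), whereas those of 157 to 163 bp, just shorter, were marked at 0 of 56. The 212- to 218-bp genes are the Rnu3 genes, 4 of 5. Genes of 141 bp, a length that no named gene has, were marked at 2 of 5, both by the same peak. Those of 62 bp, the length of Rnu7, were marked at 1 of 20, and all remaining lengths together at 2 of 183.

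**Figure D2:**
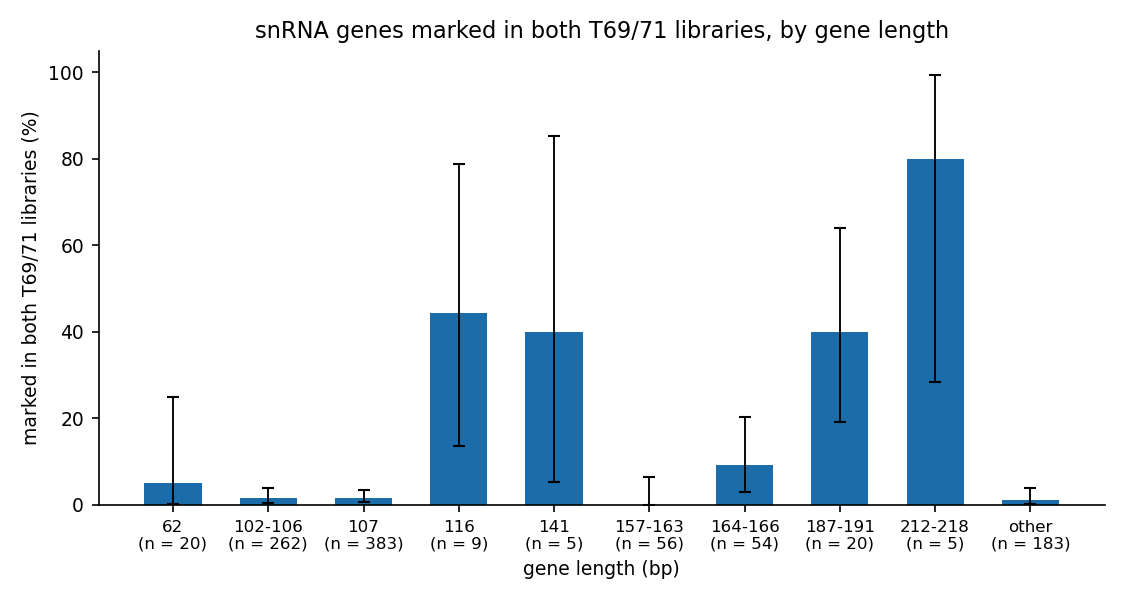
Share of snRNA genes marked in both T69/71 libraries (%), by gene length in bp, with exact binomial 95% intervals. Genes of 102 to 107 bp, the most frequent lengths, lie at 1.53% and 1.57%, and those of 187 to 191 bp stand at 8 of 20 genes.

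The contrast by length was also seen among genes without a coding end within 2 kb, but length was not crossed with clustering, described below. Of the 604 genes of 102 to 107 bp with no coding end within 2 kb, 5 were marked in both T69/71 libraries (0.828%, 0.269 to 1.92). Of the 193 genes of 116 bp or longer with no such end, 18 were marked (9.33%, 5.62 to 14.3). Among these 18 only Gm23444 and Gm25541 stood alone, and the others lay in clusters of snRNA genes. The contrast by length is therefore largely shared with that by clustering. Length here stands for class only where a named gene shares it, and a copy with the length of a named gene need not make that RNA.

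A protein-coding gene end within 2 kb went with marking. With such an end, 13, 16, 10 and 1 of 68 members were marked in the 4 libraries, and 13 in both T69/71 libraries (19.1%, 10.6 to 30.5). Without it, 29, 32, 13 and 4 of 929 were marked, and 23 in both T69/71 libraries (2.48%, 1.58 to 3.69). The intervals did not overlap, but genes are not replicates and no test across genes was made. Beside the share with a coding end stand 21.2% of coding genes, scored at both ends, and 10.8% of single coding ends. That share moved with the limits chosen. It was 34.4% with a coding end within 1 kb, 11.2% within 5 kb, and 10.3% with a summit within 500 bp. Still, 23 of the 36 members marked in both T69/71 libraries had no coding end within 2 kb.

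Several of the marked short genes lie beside a coding end. Gm24537 (102 bp) had folds of 10.5, 15.8 and 8.94 with summits 931, 956 and 951 bp above it, toward Kmt5c, which encodes a histone methyltransferase. Gm24019 (107 bp), 257 bp from Med16, a Mediator subunit gene, had folds of 11.4, 13.6 and 6.71. Gm25794, near Bsg (basigin), had folds of 9.86, 11.7 and 12.4, and Gm26243, near Tmem259, of 8.15, 7.76 and 6.73. All 4 were marked in the first 3 libraries and not in S490/498 replicate 2, and the summits of Gm24537, Gm25794 and, in T69/71 replicate 1, Gm26243 lay between 718 and 956 bp from the gene.

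Clustering went with marking as well. Members within 50 kb of each other were joined into clusters, which gave 34 clusters with 95 members, and 902 members stood alone. In clusters, 24, 27, 14 and 5 of 95 were marked in the 4 libraries, and 22 in both T69/71 libraries (23.2%, 15.1 to 32.9). Of the members alone, 18, 21, 9 and 0 of 902 were marked, and 14 in both T69/71 libraries (1.55%, 0.851 to 2.59). All 5 members marked by S490/498 replicate 2 lay in clusters. Marked clusters were mostly those of longer genes. Among them only the pair LOC115488100 and Gm23296 held no gene of 116 bp or longer. Every cluster without a marked member held a gene shorter than 116 bp. The contrast by clustering is thus largely shared with that by length.

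The 2 features were then crossed. In a cluster and without a coding end, 18 of 86 members were marked in both T69/71 libraries (20.9%, 12.9 to 31.0). Alone and with a coding end, 9 of 59 were marked (15.3%, 7.22 to 27.0), and in a cluster with one, 4 of 9. Alone and without a coding end, 5 of 843 were marked (0.593%, 0.193 to 1.38). In single libraries these isolated genes were marked at 1.07%, 1.07%, 0.356% and 0%, beside 0.924%, 1.08%, 0.531% and 0.0325% of the chromosomes lying within 1 kb of a summit. So for 843 of the 997 genes the shares in the T69/71 libraries lay near that of the whole chromosomes. The whole chromosomes include coding ends, however, which these genes lack within 2 kb. No share of the chromosomes away from coding ends was computed, nor one for both T69/71 libraries, so no rate matched to these genes is given. The upper 95% bound for the 0 of 843 in S490/498 replicate 2 was 0.437%.

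**Figure D3:**
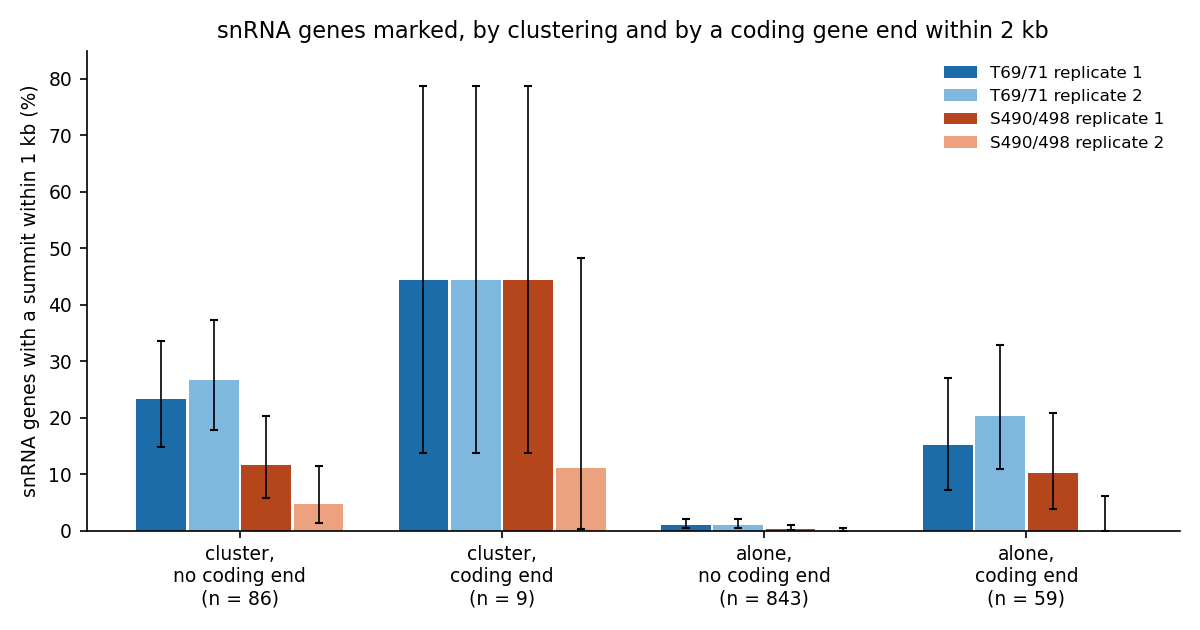
Share of snRNA genes marked (%) in each library, by whether the gene lies in a cluster and whether a coding gene end lies within 2 kb, with exact binomial 95% intervals. Isolated genes without a coding end (n = 843) stay at 1.07% or less, while clustered genes without one (n = 86) reach 26.7%.

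The 5 isolated genes without a coding end that both T69/71 libraries marked were Gm23444, Gm25541, Gm26328, Gm25081 and Gm23851. Gm23444 (chr11:83271498-83271688, 191 bp) had folds of 7.53, 12.1 and 6.96 in the first 3 libraries, with its summit 273 bp above the gene in both T69/71 lists and 308 bp above it in S490/498 replicate 1. It has the length of the genes in the U2 cluster on chromosome 11 and was the only one of the 5 marked with S490/498. Gm25541 (126 bp) had folds of 8.14 and 10.2, with both summits also within 1 kb of a lncRNA end. Gm26328 (107 bp) had folds of 4.14 and 7.56. The summits of Gm25081 (folds 5.38 and 3.73) and Gm23851 (7.05 and 7.41) lay 844 to 998 bp from the gene, near the edge of the window. Of the other 9 such genes marked in any library, Rn7sk was marked in 2, and 8 in 1 library each, with folds from 3.94 (Gm22265) to 7.07 (Gm24152). Gm24182, Gm24311 and Gm24283, alone but with a coding end within 2 kb, were marked only in T69/71 replicate 2, with folds of 4.96, 5.10 and 4.92.

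Of the 34 clusters, 9 held a marked member, and the 29 marked genes in them were 29 of the 40 members of those 9. Clusters of 3 or more numbered 10, of which 6 had a marked member, and of 24 pairs 3 had one. Every gene was marked in at least 1 library in 5 of the 9, of which the one with the most genes was on chromosome 11 from 87422867 to 87471582, where 7 genes from Rnu1a1 to Rnu3b2 lie in 48.7 kb. The 4 libraries marked 6, 7, 5 and 2 of these 7. Between the Rnu genes lie Gm22068 (164 bp, folds 5.25 and 5.91 with T69/71) and Gm23137 (107 bp). The peak that marked Gm23137 was that of Rnu3b1, 957 and 836 bp below it in the T69/71 libraries. No coding end lies within 2 kb of any of the 7, and the nearest is that of Tex14.

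Another cluster, on chromosome 12 from 54696782 to 54738622, holds 7 genes of 164 bp, the length of Rnu1a1. Of these, 2, 4, 2 and 2 were marked. Gm22634 (chr12:54710308-54710471) had the highest −log10 q of any member in each library but S490/498 replicate 1, with folds of 19.6, 45.3, 11.6 and 21.7 and −log10 q of 39.4, 247, 16.0 and 78.2. By −log10 q it ranked 427, 17, 840 and 51 in the whole lists of the 4 libraries. These ranks lie in the top 3.43%, 0.116%, 11.8% and 11.7% of the lists. Its summits lay 250, 256, 248 and 258 bp above the gene, within 10 bp of each other, and the peak (chr12:54710521-54710984 in T69/71 replicate 2) did not overlap the gene in any library. Gm22513 had folds of 5.95, 7.84, 7.25 and 5.41, but in S490/498 replicate 1 its summit was 980 bp below the gene at the end of Eapp, a coding gene. Its other summits lay 214, 209 and 151 bp above the gene. Gm26444 and LOC115488077 were marked only in T69/71 replicate 2 (folds 9.23 and 8.57), and the remaining 3 genes, LOC115488065, Gm25679 and Gm22317, in none.

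The largest cluster by number, 8 genes on chromosome 3 from 96328425 to 96488893, holds Rnu1b1, Rnu1b2 and Rnu1b6 and was marked little: 1, 2, 1 and 0 genes. Its last gene, Gm22614 (165 bp), had folds of 8.32, 11.5 and 9.41 in the first 3 libraries, with summits 353, 346 and 356 bp above it. Gm24830, at the other end of the cluster, was marked only in T69/71 replicate 2 by a weak peak (fold 4.25). LOC115489800, printed above with its U1 start, is one of the 6 that no library marked. Near-identical copies share reads, and how reads with several equal matches were placed is not given in the sources used here. Its part in which copies were marked was not tested.

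The U2 cluster, on chromosome 11 from 101604850 to 101658424, holds 5 genes of 187 or 191 bp, Rnu2-10 among them, of which 4, 4, 2 and 0 were marked. LOC115487916, 124 bp from the coding gene Rdm1, had folds of 3.91, 9.35 and 5.21. Gm24950 (5.54 and 6.49) and Gm23971 (4.43 and 9.45) were marked with T69/71 only. The value of T69/71 replicate 2 was the higher for all 4 marked genes of this cluster, though each list has its own scale. On chromosome 1 from 72226240 to 72255198, a cluster of 4 genes of 191 bp had 3, 3, 2 and 0 marked. Gm25939 had folds of 10.5, 11.8 and 7.05 there, Gm24497 of 6.81, 6.14 and 5.0, and Gm25360 of 4.40 and 5.75 with T69/71 only, while Gm23472 had no peak. The Gm24497 peaks overlap the printed D230017M19Rik window in all of the first 3 libraries, with summits at base 233 in T69/71 replicate 1 and base 219 in S490/498 replicate 1. All Gm24497 summits also lay within 1 kb of a lncRNA end.

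On chromosome 4 from 117189942 to 117210959, 3 genes of 116 bp, the length of Rnu5g, had 3, 2, 0 and 0 marked. Gm25099 had folds of 6.14 and 9.88, Gm23143 of 4.21 and 7.64, and Gm23287 of 5.59 in T69/71 replicate 1 only. S490/498 replicate 1 had a peak in this cluster too (fold 4.82), with its summit 13.9 kb from the start of the first gene, between Gm23143 (12.6 kb) and Gm23287 (20.9 kb) and outside the 1-kb window of both. The pair on chromosome 9, Gm25313 and Rnu5g, is of the same length. Gm25313 had folds of 7.33 and 7.01 with T69/71 and 4.76 with S490/498 replicate 2, and no peak in S490/498 replicate 1, the longer of the S490/498 lists.

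Of the last 2 pairs with a marked gene, Gm24265 and Gm24407 on chromosome 5 are genes of 141 bp on either side of the summit of a peak that marked both, with folds of 11.8, 10.8 and 9.02. That peak lies at the end of Sirt4, a coding gene for a mitochondrial sirtuin, which overlaps Gm24407. LOC115488100 and Gm23296 on chromosome 12, of 107 bp each, were marked by the same peak of fold 4.18 in T69/71 replicate 1, and only the former in T69/71 replicate 2 (fold 4.25). One peak can therefore mark more than 1 member: the marked members rest on 39, 46, 21 and 5 distinct peaks.

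**Figure D4:**
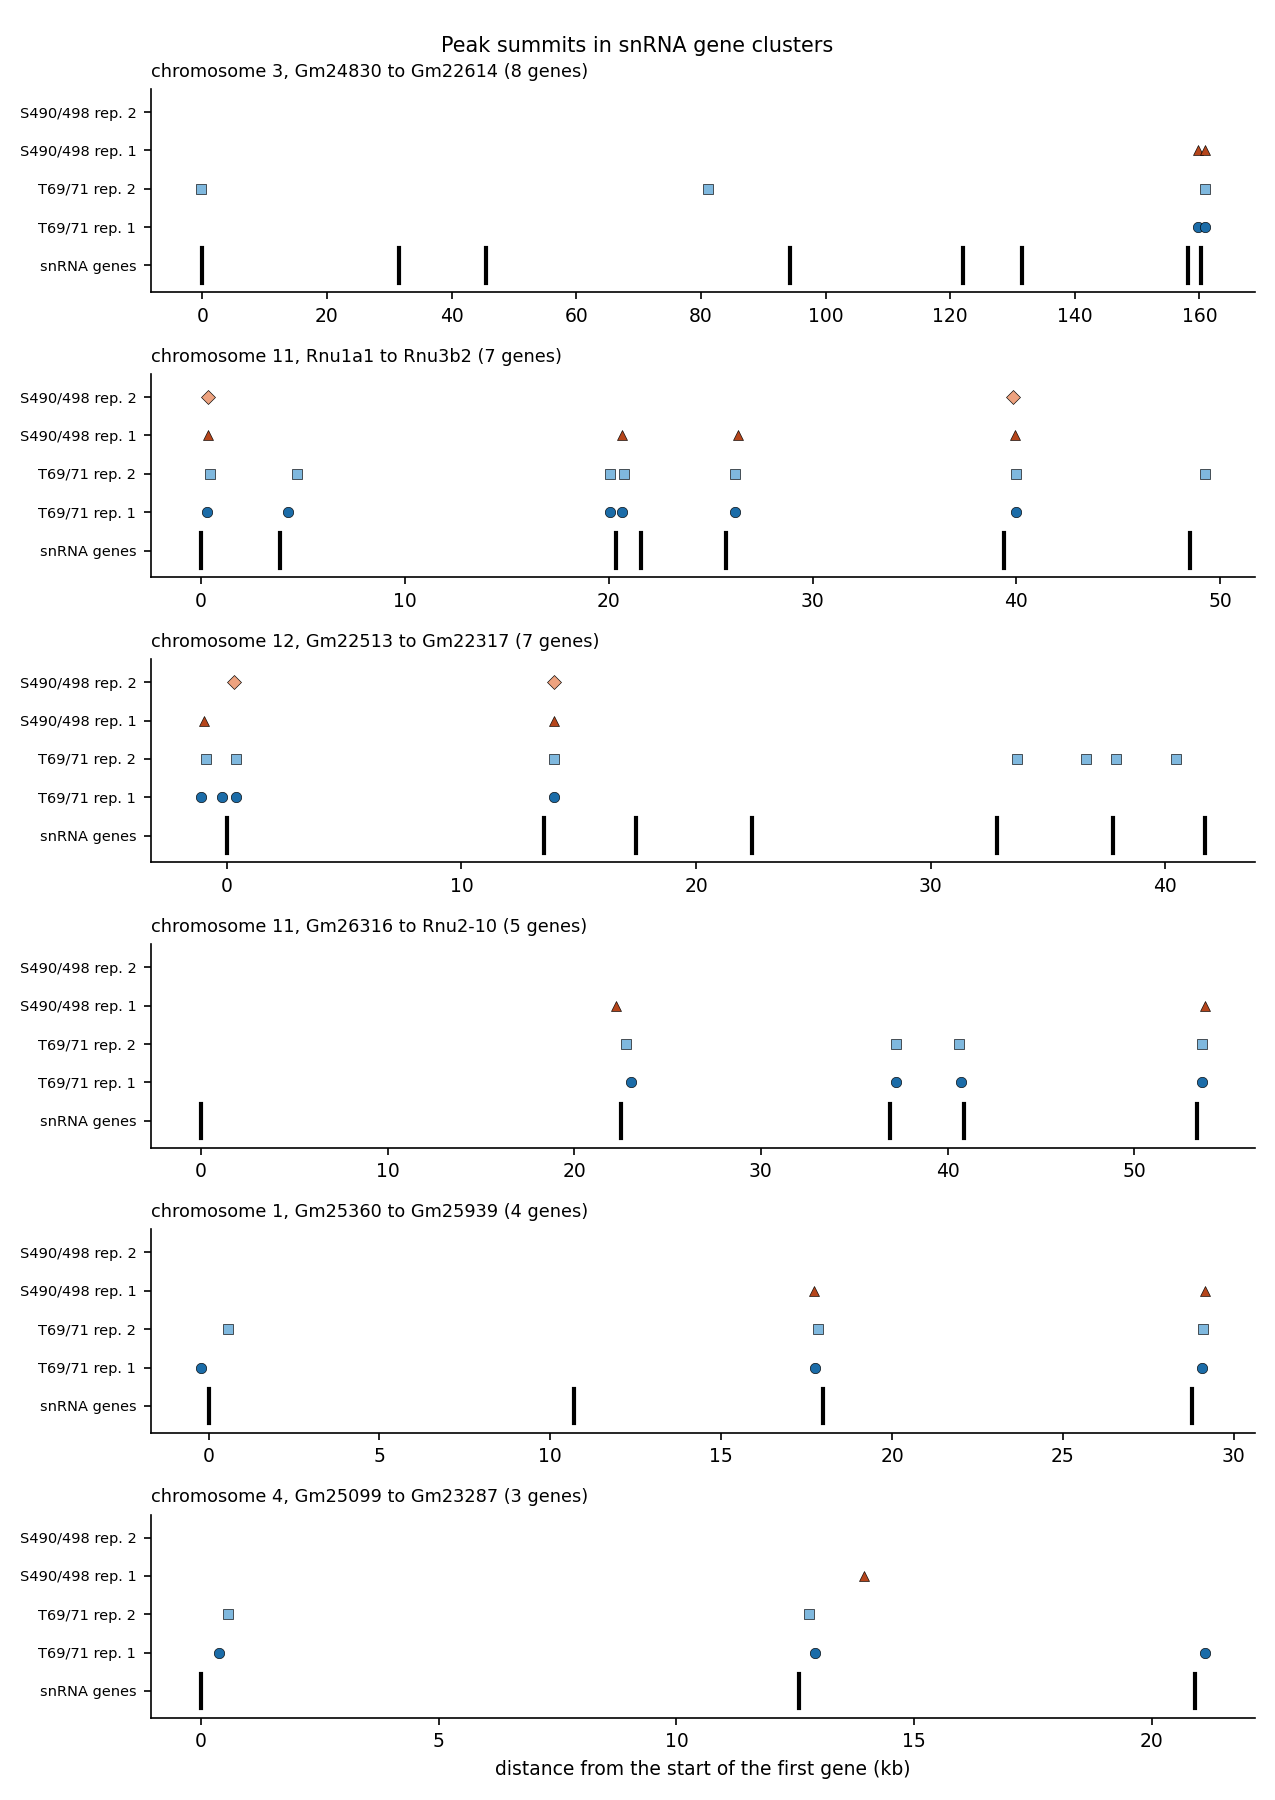
Positions of peak summits (coloured markers, a row per library) and snRNA genes (black bars) in the 6 clusters of 3 or more genes with a marked member, as distance in kb from the start of the first gene. Summits lie beside all 7 genes of the Rnu1a1 to Rnu3b2 cluster and beside only the outer 2 of the 8 genes of the Rnu1b cluster on chromosome 3.

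Summits lay beside the genes and hardly ever in them. A snRNA gene fills only a small part of the window scored, however, and no expected number of inside summits was computed. Of the marked pairs of gene and library, 0, 1, 0 and 0 summits were inside the gene in the 4 libraries, the one being LOC115488077. The peak covered some base of the gene for 14, 17, 8 and 3 members. Median distances from summit to gene end were 277, 337.5, 308 and 177 bp, and 31, 32, 18 and 5 summits lay within 500 bp. More summits lay above the gene (32, 32, 15 and 4) than below it (10, 15, 8 and 1) in every library, where above means at higher chromosome position, since the table gives no strand. The furthest summit counted was 998, 984, 980 and 258 bp from the gene, and the nearest not counted was 1086, 1054, 1078 and 2411 bp away.

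For the 36 members marked in both T69/71 libraries the summits of the pair of libraries were a median of 63 bp apart, 18 within 50 bp and 30 within 200 bp. In 3 they were over 500 bp apart. Members' peaks were somewhat stronger than the usual peak of the list in 3 libraries: the median fold was 6.85 against 6.02 for all peaks, 7.96 against 6.52, and 6.73 against 6.05. In S490/498 replicate 2 it was 5.55 against 5.54. Their median width was 421, 396.5, 341 and 486 bp against 302, 243, 290 and 411 bp for all peaks. No test was made of these differences. Beside the gene, 10, 13, 9 and 0 summits also lay within 1 kb of a coding end, 6, 7, 5 and 0 within 1 kb of a lncRNA end, and 27, 30, 10 and 5 near neither.

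The mean share marked was 4.51% with T69/71 and 1.40% with S490/498, a difference of 3.11 percentage points. Both T69/71 values were above both S490/498 values, and the exact two-sided permutation test gave p = 0.333, the smallest that 2 libraries against 2 can give. The lists differ in length, however. When each was cut to its 435 strongest peaks by −log10 q, 1, 2, 0 and 5 members were marked and the difference turned to −0.100 points (exact permutation p = 1). The antibody difference and the length of the list cannot be told apart here.

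The genes whose proteins make and handle these RNAs were marked far more often than the snRNA genes. Unlike a snRNA gene, however, a coding gene was scored at ends that lie far apart. Of 50 such coding genes, 39, 35, 29 and 0 were marked in the 4 libraries, and 32 in both T69/71 libraries (64.0%, 49.2 to 77.1), against 21.2% of all coding genes. By group, this was 10 of 17 genes of snRNA transcription, 11 of 14 of Integrator, which cuts the ends of snRNA precursors, 6 of 12 of export and assembly, and 5 of 7 of the 7SK particle. Zfp143, an activator of snRNA genes, had folds of 19.2, 18.2 and 17.2 in the first 3 libraries. Mepce, the methyl transferase that caps 7SK, had folds of 11.5, 16.0 and 13.1, and Larp7, which binds the end of 7SK, 16.1, 13.9 and 12.7. Pou2f1, which binds the octamer, had 12.3, 12.9 and 7.43, and Snapc3, a subunit of the SNAPc complex, had no peak in any library. The list was picked with earlier results known, and is given as a description of these genes. No set of coding genes matched for activity was compared.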

How the data were processed

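CUT&Tag peak lists of 4 libraries (2 per antibody) were used. Read quality (FastQC 0.11.5), alignment (Bowtie2 2.2.9), peak calling (MACS2) and annotation (ChIPseeker) on mm10 are named in the submitters' processing notes. No source used here states their settings, the handling of duplicate and multiply placed reads, or any control. The deposited lists give a score, a fold, and −log10 p and −log10 q values, all computed by the authors' peak caller per library. The fold is a ratio over local background with the same constant added to both parts. The peak names of both S490/498 lists share a prefix, and the lists themselves differ.

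Genes were taken from the RefSeq gene table (mm10). A gene was marked when a summit lay within 1 kb of either end, and coding ends and clusters were measured in the same table, with gaps up to 50 kb for a cluster. Shares carry exact binomial 95% intervals. Fragment numbers were recovered by solving the fold and p columns. Replicate numbers were not used to pair libraries. Genes named in the text were those with symbols beginning Rnu or Rn7sk, members marked in 2 or more libraries (all, or the 30 strongest), their coding neighbours, and up to 8 of the pathway list. Others named were chosen after their values were seen. The members and lists were chosen with earlier results of these data known. The scoring was tested on simulated data. Python 3.11.15, numpy 2.4.6, pandas 2.3.3, scipy 1.17.1 and matplotlib 3.10.9 were used. Alternatives were other summit distances, coding distances, q thresholds, cluster gaps, peak overlap, equal list lengths and gene sets.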

Additional observations from a re-analysis of the deposited data

How the results depend on the processing

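Most values kept their size under the alternatives tried: 63 of 79 stayed within 1.5 times or the interval. Some of these could not move. Adding the 7 genes under 3 Mb, where no peak off chromosome Y lay, cannot change a count. The replicate block cannot change the mean difference. Requiring −log10 q of at least 10 left 17 members in both T69/71 libraries, 17, 29, 6 and 1 in the 4 libraries, and a share of 0.969% without a coding end. At a −log10 q of at least 5, S490/498 replicate 2 marked 3. With each list cut to 435 peaks, the counts were 1 in both T69/71 libraries, 1, 2 and 0 in T69/71 replicates 1 and 2 and S490/498 replicate 1, shares 0% with and 0.108% without a coding end, and a difference between antibodies of −0.100 points. With a summit within 500 bp the share with a coding end was 10.3%, and with a coding end within 1 kb it was 34.4%. Leaving out 1 T69/71 library left the other's own count, 42 or 48 members. Leaving out any 1 library gave a difference of 2.21 to 4.01 points. With the replicate block the difference stayed at 3.11 points (exact permutation p = 0.5, the smallest that the pairing can give). The labels do not say that a number marks a shared mouse, and same-numbered libraries' deviations correlated at 0.0590 over members. Clusters with a marked member numbered 9 with a gap of 20 kb and 10 with 100 kb. Single members rest on few fragments, so an unmarked gene is one where no peak was called, not one shown to lack signal.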
